A study of Mus musculus with 16 samples.

Results

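The Toll-like receptor system of blood neutrophils was followed here through 10 genes of a table that lists 23337 gene symbols. They encode the receptors Tlr1, Tlr2, Tlr4, Tlr6 and Tlr13, the co-receptors Cd14 and Ly96, the adaptor Myd88 and the IRAK kinase family members Irak2 and Irak3. The genes were chosen by symbol, with earlier results of these data known, and all 10 passed the filter on low counts. The study asked whether neutrophils that lack the lymphotoxin β receptor (LTβR) respond differently to inflammatory signals. Neutrophils were taken by magnetic negative selection from the blood of 8 week old C57/Bl6 mice and measured by bulk RNA-Seq in 16 libraries. In LTβRΔN mice (Ltbrfl/fl x Mrp8-Cre) the floxed Ltbr gene is deleted by a Cre recombinase under the Mrp8 promoter, which is active in neutrophils. Ctrl mice were littermates that carry the same floxed alleles without Cre (Ltbrfl/fl Cre-).

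There were 3 unstimulated (unstim) and 4 stimulated (stim) Ctrl libraries, and 4 unstimulated and 5 stimulated LTβRΔN libraries. By the treatment protocol, cells were cultured for 2 h with 100 ng/ml TNF, 100 ng/ml GM-CSF and 50 ng/ml IL-6, and LIGHT, a ligand of LTβR, was either added to 500 ng/ml or left out. The design text of the series names the cytokines themselves as what was present or absent. No label gives the additions to a given library, so the groups are called here by their labels. The labels do not say which libraries came from separate mice, and p-values then measure the spread between these libraries, which may be technical. Beside the library number, column names carry a number that 7 unstimulated libraries each share with a stimulated library of the same genotype. The meaning of that number is not given, and the main tests do not pair by it.

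Toll-like receptors recognise conserved microbial molecules, and neutrophils carry several of them at the surface and in endosomes. TLR2 pairs with TLR1 or TLR6 to sense bacterial lipopeptides, TLR4 senses lipopolysaccharide together with the secreted protein encoded by Ly96 and with CD14, and TLR13 is an endosomal sensor of bacterial ribosomal RNA in mice. Their common adaptor MyD88 recruits IRAK kinases, which hand the signal through TRAF6 to NF-kB. IRAK2 sustains that signal, and IRAK3 (also called IRAK-M) dampens it.

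Ltbr, the deleted gene, was at 101, 93.6 and 154 CPM (counts per 1000000 counts of a library) in the unstimulated and at 97.03, 105, 84.6 and 148 CPM in the stimulated Ctrl libraries. It was at 10.1, 8.80, 3.62 and 10.4 CPM in unstimulated and at 18.1, 3.71, 0.705, 10.3 and 10.5 CPM in stimulated LTβRΔN libraries, all below every Ctrl library. The log2 fold change of LTβRΔN over Ctrl was -3.80 (SE 0.452, adjusted p = 1.09e-04) without and -3.71 (SE 0.417, adjusted p = 3.83e-05) with stimulation. These values come from edgeR's quasi-likelihood test, with p adjusted by Benjamini-Hochberg over all genes tested, and a gene counts as called at an adjusted p under 0.05. CPM values use the library total multiplied by its TMM factor, and libraries are listed in the order of their numbers, 71 to 73 and 80 to 83 for Ctrl, 67 to 70 and 75 to 79 for LTβRΔN.

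Library totals ran from 1094335 to 11932653 counts, and the stimulated LTβRΔN libraries had the lowest median, 2408608. The 7 neutrophil markers found in the table, among them S100a8, Csf3r and Cxcr2, summed to between 45000 and 75500 CPM. Since Cd14 and several Toll-like receptors are also monocyte genes, 7 monocyte markers were read beside them. Ccr2 and Cx3cr1 were at 0 in 15 of the 16 libraries and F13a1 in 14 of them, whereas Csf1r and Ly6c2 were present throughout. The monocyte markers summed to 398 to 494 CPM in unstimulated and 357 to 456 CPM in stimulated Ctrl, and to 341 to 563 and 365 to 419 CPM in LTβRΔN. Library 82, a stimulated Ctrl library, stood apart in markers of platelets (194 CPM, at most 42.7 CPM in any other library) and of immature neutrophils (764 CPM, at most 317 CPM in any other), and values without it are given where they change a call. Sums of B cell markers were at most 1.6 CPM and of T cell markers at most 15.4 CPM, those of eosinophil markers lay between 38.4 and 114 CPM, and those of erythroid markers between 12 and 67 CPM.

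With stimulation 6 of the 10 genes rose in Ctrl neutrophils and 4 rose in LTβRΔN neutrophils, and 0 of them fell in either. Cd14, Tlr2, Tlr4 and Myd88 rose in both genotypes, and Tlr6 and Irak2 passed the test in Ctrl. Over all 9213 genes tested, 3.48% were called and 2.82% were called higher in Ctrl, and 3.73% were called and 2.98% were called higher in LTβRΔN. The median log2 fold change of the 10 genes was 0.768 in Ctrl and 0.42 in LTβRΔN, against -0.0243 and -0.0275 over all genes. Without the unstimulated Ctrl library 71, 3 of the 10 genes were called in Ctrl, as Tlr4, Tlr6 and Irak2 no longer passed. Every stimulated library was above every unstimulated one for Tlr2, Tlr4, Tlr6, Cd14, Myd88 and Irak2 in Ctrl, as for 6.58% of all genes, and for Tlr2, Tlr6, Cd14 and Myd88 in LTβRΔN, as for 4.61%. The opposite, every stimulated library below every unstimulated one, held for 0 of the 10 genes in Ctrl (6.09% of all genes) and for Tlr13 in LTβRΔN (2.67%). In bulk RNA, fewer cells of a type and less RNA per cell cannot be told apart, and this holds for each change given here.

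**Figure D1:**
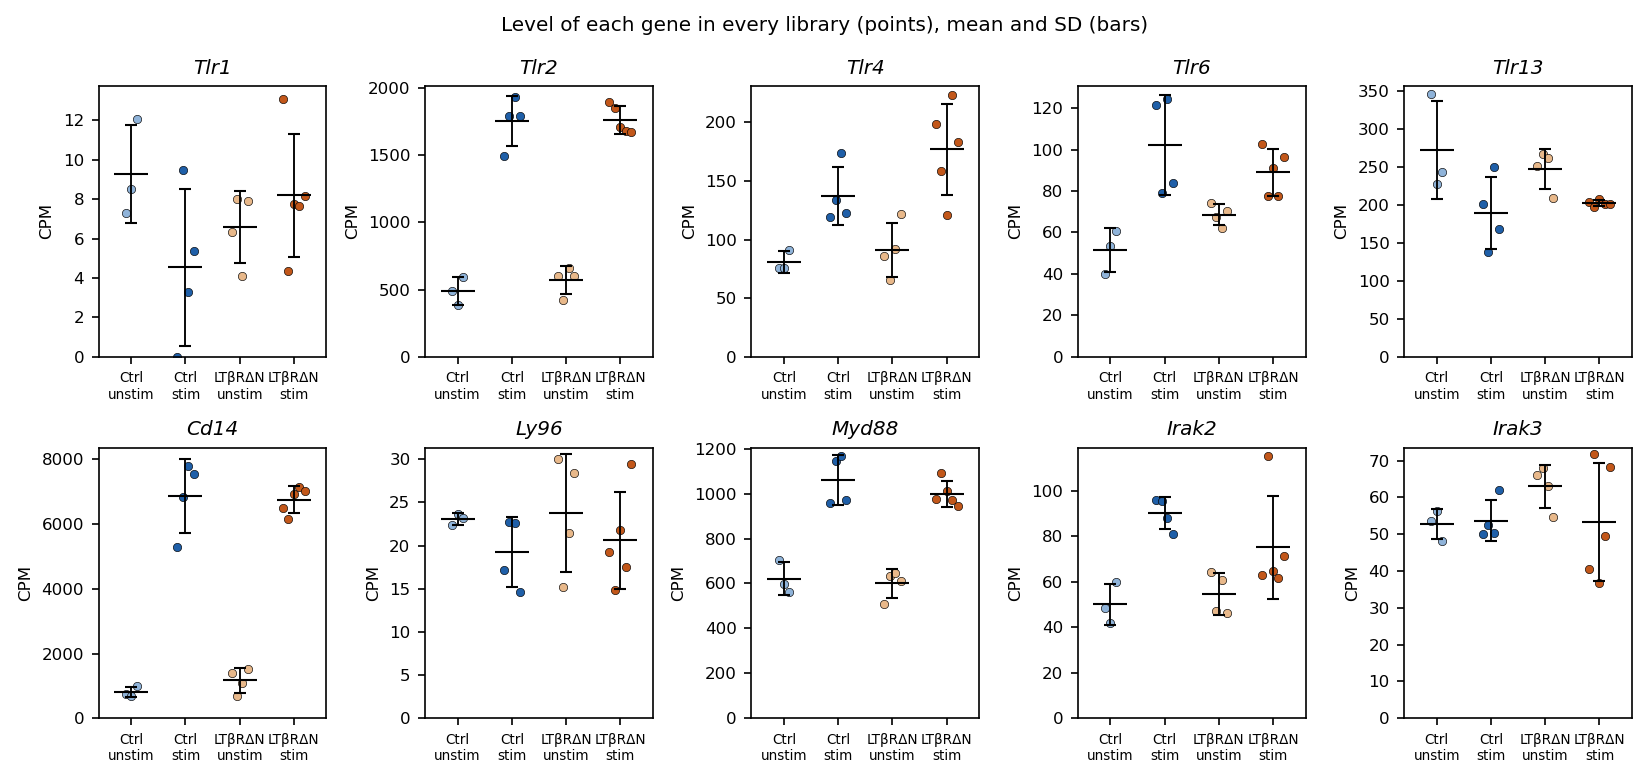
CPM of the 10 genes on the vertical axis in every library (points) of the 4 groups, with the mean and SD as bars. The stimulated libraries of Cd14 lie between 5280.4 and 7795 CPM in Ctrl, all above the unstimulated ones, whereas the groups of Ly96 and Irak3 overlap.

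The promoters of 4 of these genes are shown first, 3 of which rose in at least 1 genotype (Tlr2, Myd88 and Tlr6) and 1 of which did not pass the test in either (Tlr13). RefSeq windows of 7 of the 10 genes were searched. Each run below has 250 bases before and 30 bases after the RefSeq start site on GRCm38.p6, 5′ to 3′ on the gene's own strand, and capitals mark matches to an NF-kB motif or to TTCNNNGAA, the STAT motif. The Tlr2 window is chr3:83841579-83841858 (minus strand), that of Myd88 is chr9:119339989-119340268 (minus), that of Tlr6 is chr5:64960019-64960298 (minus), and that of Tlr13 is chrX:106143025-106143304 (plus). RefSeq gives Tlr6 a second start site, and the window shown is the one of the pair that held a match. In GENCODE the Myd88 gene runs to 119341411, so the Myd88 window lies inside the gene as placed there. The Tlr2 gene runs to 83841767 and the Tlr6 gene to 64960097 in GENCODE, and Tlr13 begins at 106143204. Each of these ends falls within the window shown, so positions counted from the RefSeq start sites would differ by GENCODE.
Tlr2: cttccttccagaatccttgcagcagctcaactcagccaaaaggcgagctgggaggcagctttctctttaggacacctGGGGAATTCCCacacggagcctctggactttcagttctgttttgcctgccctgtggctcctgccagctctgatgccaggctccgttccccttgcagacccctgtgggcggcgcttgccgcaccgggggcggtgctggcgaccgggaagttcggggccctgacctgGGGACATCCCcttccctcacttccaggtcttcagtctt
Myd88: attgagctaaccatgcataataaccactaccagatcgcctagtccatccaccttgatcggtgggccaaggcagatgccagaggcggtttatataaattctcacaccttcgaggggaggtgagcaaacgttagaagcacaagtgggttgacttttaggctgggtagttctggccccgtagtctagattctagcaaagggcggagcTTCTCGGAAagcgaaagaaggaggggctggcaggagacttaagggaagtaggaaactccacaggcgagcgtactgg
Tlr6: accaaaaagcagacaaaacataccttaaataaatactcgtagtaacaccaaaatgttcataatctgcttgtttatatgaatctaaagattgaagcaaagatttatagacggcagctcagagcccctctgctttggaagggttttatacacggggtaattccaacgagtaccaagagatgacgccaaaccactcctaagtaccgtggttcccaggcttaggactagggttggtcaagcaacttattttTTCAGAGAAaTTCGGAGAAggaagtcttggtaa
Tlr13: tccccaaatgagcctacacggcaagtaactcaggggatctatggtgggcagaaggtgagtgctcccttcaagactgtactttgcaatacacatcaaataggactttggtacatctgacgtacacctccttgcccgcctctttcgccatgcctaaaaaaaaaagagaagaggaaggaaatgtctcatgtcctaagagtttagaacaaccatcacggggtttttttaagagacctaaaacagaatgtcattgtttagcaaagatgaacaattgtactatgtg

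In the Tlr2 window the NF-kB motif matched at -173 and, overlapping it, at -172, and again at -8, counted from the first base of the match to the start site at 0. The Myd88 window held TTCNNNGAA at -46, and the Tlr6 window held it at -3 and at 7. Of the other motifs searched on both strands, TGANTCA (AP-1) matched in none of the 10 windows of these 7 genes, and GAGGAAGT (the PU.1 core) matched in a Tlr1 window at -23. The second Tlr1 window held TTCNNNGAA at -228. No motif of the 4 matched in the Irak2, Irak3 and Tlr13 windows or in the second Tlr6 window. Irak2, called in Ctrl, was thus without a match, whereas Tlr1, not called in either genotype, had matches. A link between motif and response was not tested. Among all 32851 windows of 300 bases, 8.46% held the NF-kB motif, 8.3% TTCNNNGAA, 7.81% TGANTCA and 3.2% GAGGAAGT. These are matches of letters and were not tested as binding sites.

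Among the surface receptors of bacterial lipopeptides the calls under stimulation differed. Tlr2 had a large rise in both genotypes, Tlr6 a smaller rise that passed the test in Ctrl, and Tlr1 no call. The responses of these genes were not tested against each other. Tlr2 (ENSMUSG00000027995.10, chromosome 3 of GRCm38, 83836272 to 83841767, 3 exons) was at 493, 388 and 591 CPM in unstimulated and at 1492, 1792, 1932 and 1791 CPM in stimulated Ctrl libraries. In LTβRΔN it was at 602, 419, 662 and 602 CPM without and 1899, 1850.4, 1707, 1681 and 1672 CPM with stimulation. Even the lowest stimulated library, at 1492 CPM in Ctrl, was far above the highest unstimulated one, at 662 CPM in LTβRΔN. The mean of 490.4 ± 102 (SD, n = 3) CPM in unstimulated Ctrl became 1751 ± 185 (SD, n = 4) CPM with stimulation, a log2 fold change of 1.84 (SE 0.157, adjusted p = 1.42e-08), and that of 571 ± 105 (SD, n = 4) CPM in LTβRΔN became 1762 ± 105 (SD, n = 5) CPM, where the log2 fold change was 1.62 (SE 0.136, adjusted p = 9.89e-09). Both calls were also made by every alternative fit and without each library in turn, with log2 fold changes of 1.57 to 1.99 in Ctrl and 1.20 to 1.70 in LTβRΔN.

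Tlr6 (ENSMUSG00000051498.6, chromosome 5, 64952031 to 64960097) encodes the partner of TLR2 for diacylated lipopeptides. Its level was 40.2, 53.5 and 60.8 CPM in unstimulated and 122, 79.002, 124 and 83.6 CPM in stimulated Ctrl libraries, and 74.4, 67.2, 62.2 and 70.2 CPM in unstimulated and 103, 77.5, 90.9, 77.7 and 96.5 CPM in stimulated LTβRΔN libraries. The groups did not overlap in either genotype, but the gap in LTβRΔN was narrow. Tlr6 rose in Ctrl, from 51.5 ± 10.5 (SD, n = 3) to 102 ± 24.2 (SD, n = 4) CPM, with a log2 fold change of 0.99 (SE 0.208, adjusted p = 0.0042). In LTβRΔN the log2 fold change was 0.37 (SE 0.184, adjusted p = 0.402), and the test was not passed. The unstimulated level was the lower one in Ctrl, a mean of 51.5 CPM against 68.5 CPM in LTβRΔN. Without the unstimulated Ctrl library 71, whose 40.2 CPM was the lowest of all, the Ctrl value was 0.84 with an adjusted p of 0.0585, and in a fit of the compared groups only it was 0.99 with an adjusted p of 0.0508. With a block by the number in the column names, the Ctrl value was 0.87 with an adjusted p of 0.0506.

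Tlr1 (ENSMUSG00000044827.10, chromosome 5, 64924679 to 64933563), whose product pairs with TLR2 for triacylated lipopeptides, was the least abundant of the 10. It had 7.30, 8.50 and 12.1 CPM in unstimulated and 0, 9.49, 3.27 and 5.37 CPM in stimulated Ctrl libraries, and 6.34, 8.004, 4.07 and 7.92 CPM in unstimulated and 13.1, 4.33, 7.75, 7.63 and 8.14 CPM in stimulated LTβRΔN libraries. The 0 stands for 0 reads in library 80, where up to 3 reads, or 0.405 CPM, would still be possible, while the other 3 stimulated Ctrl libraries had 33 to 43 reads. The log2 fold change was -1.05 (SE 0.818, adjusted p = 0.771) in Ctrl and 0.30 (SE 0.748, adjusted p = 0.948) in LTβRΔN, neither past the test. Without library 80 the Ctrl value moved to -0.63 (adjusted p = 0.894). Of the 45 pairs among the 10 genes, only Tlr1 and Tlr6 share stretches of 50 bases, 13.6% of those in Tlr1 and 12.3% of those in Tlr6, so reads from these neighbouring paralogs could be split or lost between them and their values are uncertain.

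The calls also differed within the lipopolysaccharide receptor complex, again without a test between its genes. Cd14 had the largest change of the 10 genes, Tlr4 a modest rise and Ly96 no call. Cd14, whose product delivers lipopolysaccharide to TLR4, was at 764, 703 and 984 CPM in unstimulated and at 5280.4, 6840.4, 7795 and 7542 CPM in stimulated Ctrl libraries. In LTβRΔN neutrophils it was at 1414, 680.3, 1082 and 1527 CPM without stimulation and at 6491, 6146, 6925, 7143 and 7016 CPM with it. The lowest stimulated library of either genotype, at 5280.4 CPM, was far above the highest unstimulated one, at 1527 CPM. The Ctrl mean was 817 ± 148 (SD, n = 3) CPM before and 6865 ± 1131 (SD, n = 4) CPM with stimulation, a rise of 8.40-fold with a log2 fold change of 3.07 (SE 0.214, adjusted p = 4.31e-10). In LTβRΔN the mean was 1176 ± 381 (SD, n = 4) CPM before and 6744 ± 415 (SD, n = 5) CPM with it, a rise of 5.72-fold, with a log2 fold change of 2.52 (SE 0.181, adjusted p = 7.07e-10). Every alternative and every library left out kept both calls, with log2 fold changes of 2.80 to 3.22 and 2.09 to 2.67.

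Tlr4 (ENSMUSG00000039005.13, chromosome 4, 66827584 to 66930284), the signalling receptor for lipopolysaccharide, was at 75.4, 75.9 and 91.4 CPM in unstimulated and 119, 134, 174 and 123 CPM in stimulated Ctrl libraries. The LTβRΔN libraries had 86.1, 65.6, 92.3 and 121 CPM without and 199, 159, 121, 223 and 183 CPM with stimulation, where the lowest stimulated library, 77, was just under the highest unstimulated one, 70. Tlr4 rose in Ctrl, from a mean of 80.9 ± 9.09 (SD, n = 3) CPM up to 137 ± 25.05 (SD, n = 4) CPM, with a log2 fold change of 0.76 (SE 0.212, adjusted p = 0.0451), and in LTβRΔN from 91.4 ± 23.1 (SD, n = 4) CPM to 177 ± 39.02 (SD, n = 5) CPM, with a log2 fold change of 0.94 (SE 0.189, adjusted p = 0.00273). The LTβRΔN call was kept without each library in turn. The Ctrl call was near its threshold and was lost without library 71 (0.71, adjusted p = 0.213), 72 (0.71, adjusted p = 0.223), 73 (0.86, adjusted p = 0.0721), 81 (0.78, adjusted p = 0.0749) or 82 (0.63, adjusted p = 0.160), and in a fit of the compared groups only (0.76, adjusted p = 0.0508). A block by the number in the column names also lost the Ctrl call (0.63, adjusted p = 0.0793). Library 82, which stood apart in platelet and immature neutrophil markers, had the highest Tlr4 of the Ctrl libraries.

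Ly96 (ENSMUSG00000025779.10, chromosome 1, 16688051 to 16709611) encodes the secreted partner that holds lipopolysaccharide in the TLR4 complex. It was at 22.4, 23.7 and 23.2 CPM in unstimulated and 17.2, 22.8, 22.6 and 14.6 CPM in stimulated Ctrl libraries, and at 30.004, 15.2, 21.5 and 28.4 CPM in unstimulated and 19.3, 14.9, 21.8, 17.5 and 29.4 CPM in stimulated LTβRΔN libraries. The groups overlapped in both genotypes. Log2 fold changes were -0.26 (SE 0.326, adjusted p = 0.912) in Ctrl and -0.23 (SE 0.295, adjusted p = 0.857) in LTβRΔN.

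Tlr13 (ENSMUSG00000033777.4, chromosome X, 106143204 to 106160493), the endosomal sensor, was lower on average after stimulation, without passing the test. Its level was 346, 228 and 243 CPM in unstimulated and 201, 138, 249 and 168 CPM in stimulated Ctrl libraries. In LTβRΔN it was 251, 267, 262 and 209.5 CPM without and 204, 198, 208, 201 and 201 CPM with stimulation. The stimulated LTβRΔN libraries were all below the unstimulated ones, with 208 CPM as the highest stimulated and 209.5 CPM as the lowest unstimulated value, and the Ctrl groups overlapped. The log2 fold change was -0.53 (SE 0.174, adjusted p = 0.131) in Ctrl and -0.29 (SE 0.156, adjusted p = 0.475) in LTβRΔN, neither past the test. Without library 82, whose 249 CPM was the highest of the stimulated libraries, the Ctrl value was -0.69 with an adjusted p of 0.0225, and with scaling by library totals only it was -0.77 with an adjusted p of 0.00901. With a block by the number in the column names, the Ctrl value was -0.68 with an adjusted p of 0.00537. Without library 71, whose 346 CPM was the highest of the unstimulated libraries, the Ctrl value was -0.32 with an adjusted p of 0.684. It was -0.40 (adjusted p = 0.325) without library 81 and -0.36 (adjusted p = 0.944) with the index as a covariate. The Ctrl fall did not pass in 5 of 7 alternative fits and in 6 of 7 runs with 1 library left out.

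Among the shared signalling genes the adaptor Myd88 rose in both genotypes. Myd88 (ENSMUSG00000032508.8, chromosome 9, 119335934 to 119341411) was at 705, 598 and 561 CPM in unstimulated and 959.7, 1144, 1169 and 969 CPM in stimulated Ctrl libraries. In LTβRΔN libraries it was at 507, 634, 648 and 612 CPM without and 974, 1092, 1013, 970.3 and 944 CPM with stimulation. The groups were well separated, with 944 CPM as the lowest stimulated and 705 CPM as the highest unstimulated value. Myd88 rose in Ctrl, from 621 ± 74.9 (SD, n = 3) CPM up to 1060.4 ± 111 (SD, n = 4) CPM, with a log2 fold change of 0.77 (SE 0.124, adjusted p = 2.02e-04), and in LTβRΔN from 600.4 ± 64.02 (SD, n = 4) CPM up to 999 ± 57.5 (SD, n = 5) CPM, with a log2 fold change of 0.74 (SE 0.11, adjusted p = 6.8e-05). Both calls were kept in every alternative and without each library, and the difference between the responses was -0.04 (SE 0.163). Of its 2576 exonic bases, 290 (11.3%) also belong to Acaa1a on the opposite strand, and the use of strand in counting is not given in the sources used here.

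Irak2 (ENSMUSG00000060477.14, chromosome 6, 113638467 to 113695026), a kinase that prolongs signalling to NF-kB, was at 48.4, 42.03 and 59.8 CPM in unstimulated and 96.1, 95.6, 87.99 and 81.2 CPM in stimulated Ctrl libraries. In LTβRΔN it was at 64.5, 47.2, 60.7 and 46.2 CPM without and 62.9, 115, 64.8, 61.5 and 71.3 CPM with stimulation. The Ctrl groups did not overlap, and of the stimulated LTβRΔN libraries, library 76 was far above the other 4, and without it the log2 fold change in LTβRΔN was 0.25. Irak2 rose in Ctrl, from 50.1 ± 8.996 (SD, n = 3) to 90.2 ± 7.09 (SD, n = 4) CPM, with a log2 fold change of 0.85 (SE 0.228, adjusted p = 0.0362), and in LTβRΔN the log2 fold change of 0.47 (SE 0.203, adjusted p = 0.304) did not pass the test. The Ctrl call was lost without library 71 (0.82, adjusted p = 0.157), 72 (0.73, adjusted p = 0.263), 80 (0.82, adjusted p = 0.0737), 81 (0.82, adjusted p = 0.0824) or 82 (0.86, adjusted p = 0.0601). Scaled by library totals only, the Ctrl value was 0.61 with an adjusted p of 0.142. With a block by the number in the column names, it was 0.87 with an adjusted p of 0.0827.

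Irak3 (ENSMUSG00000020227.10, chromosome 10, 120141648 to 120202130), the inhibitory member of the kinase family, did not pass the test in either genotype. It was at 53.7, 56.3 and 48.3 CPM in unstimulated and 50.1, 52.4, 50.2 and 61.9 CPM in stimulated Ctrl libraries, and at 66.04, 68.03, 63.1 and 54.7 CPM in unstimulated and 40.5, 71.8, 36.6, 49.4 and 68.2 CPM in stimulated LTβRΔN libraries. The stimulated LTβRΔN libraries were the most spread of the 4 groups. Log2 fold changes were 0.02 (SE 0.226, adjusted p = 0.992) in Ctrl and -0.22 (SE 0.204, adjusted p = 0.780) in LTβRΔN, and the Ctrl value, near 0, changed sign with scaling by library totals only (-0.23) and without library 73 (-0.04) or 83 (-0.05). Small parts of its exons (5.98%) and of those of Irak2 (4.44%) overlap genes on the opposite strand.

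The index code in the sample titles was S521 for all 9 stimulated libraries and for the unstimulated Ctrl library 73, and S520 for the other 6 unstimulated libraries. In LTβRΔN the index and the treatment therefore cannot be told apart. Within S521, all 4 stimulated Ctrl libraries were above library 73 for Cd14 (a mean log2 difference of 2.79), Tlr2 (1.56), Myd88 (0.91), Tlr6 (0.72), Irak2 (0.59) and Tlr4 (0.57), with no test since 1 library stood on the unstimulated side. For Irak3 all 4 were above it too (0.15), for Ly96 and Tlr1 0 of 4 were, and for Tlr13 1 of 4 was. With the index as a covariate, Cd14, Tlr2 and Myd88 kept their calls in both genotypes, and Tlr4, Tlr6 and Irak2 did not pass in Ctrl, with log2 fold changes of 0.59, 0.75 and 0.59 and adjusted p-values of 0.849, 0.511 and 0.886. Tlr4 in LTβRΔN was then 0.66 with an adjusted p of 0.9999. All LTβRΔN values of this fit rest on an index term set by the unstimulated Ctrl libraries, 73 against 71 and 72, and so do not separate the index from the treatment in LTβRΔN.

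Scaling moved the whole table as well as the members. With library totals only, the median log2 fold change of all genes was -0.272 in Ctrl and -0.208 in LTβRΔN, and 201 genes were called higher and 272 lower in Ctrl, where the TMM-scaled fit called 260 higher and 61 lower. In LTβRΔN the split was 216 higher and 293 lower against 275 and 69. On that scale 4 of the 10 genes were called higher and Tlr13 lower in Ctrl, and the same number, 4, higher in LTβRΔN. The Ctrl value of Tlr4 was then 0.52 with an adjusted p of 0.163, so it lay above the shifted median but did not pass.

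**Figure D2:**
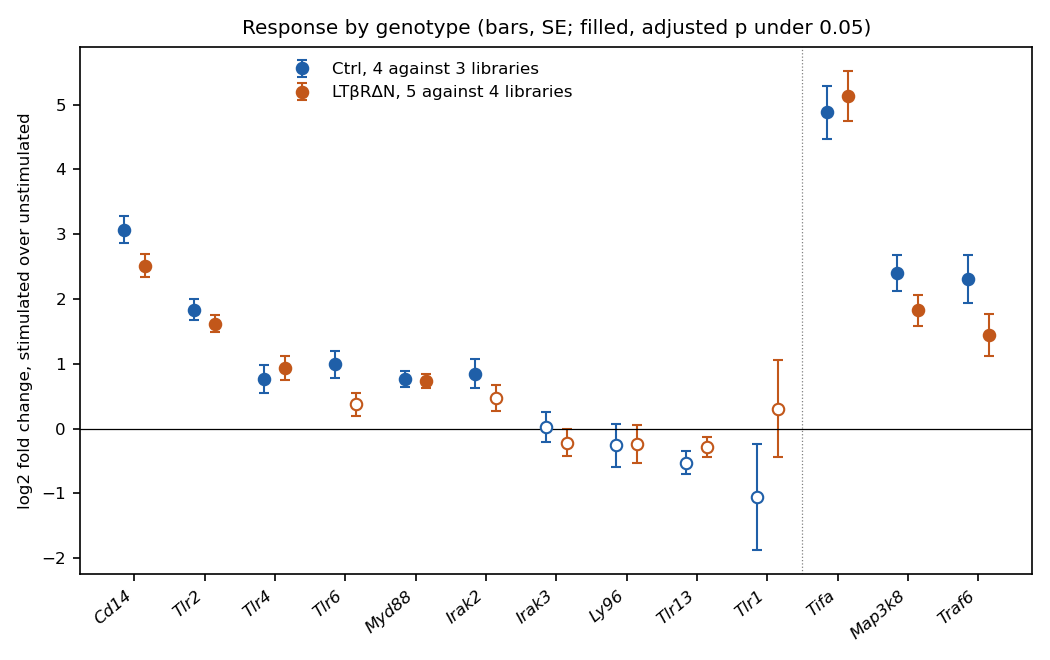
Log2 fold change of stimulated over unstimulated libraries on the vertical axis for the 10 genes and, right of the dotted line, the 3 called genes of the wider pathway list, in Ctrl (blue) and LTβRΔN (orange). Bars are SE and filled points have an adjusted p under 0.05, which 6 of the 10 genes reach in Ctrl and 4 in LTβRΔN.

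The question whether loss of LTβR changed these genes was addressed by comparing the genotypes within each label. Among stimulated libraries edgeR called 0 of the 10 genes (0.0217% of all genes were called), and DESeq2 also called 0. By edgeR 591 of all 9213 genes had an unadjusted p under 0.05, and of the 10 genes 0 did. The nearest was Tlr4, with a log2 fold change of LTβRΔN over Ctrl of 0.37 (SE 0.185, adjusted p = 0.774), followed by Irak2 at -0.25 (SE 0.198, adjusted p = 0.949). The most imprecise was Tlr1, at 0.85 (SE 0.752, adjusted p = 0.956), and without library 80 this was 0.43. Estimates for Cd14, Tlr2 and Myd88 were smaller than their errors, at -0.03 (SE 0.167), 0.01 (SE 0.130) and -0.09 (SE 0.107), and those of Cd14 and Tlr2 changed sign with some single libraries left out.

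Among unstimulated libraries edgeR again called 0 of the 10 (0.0217% of all genes), and DESeq2 called 0. By edgeR 258 of all 9213 genes had an unadjusted p under 0.05, and of the 10 genes 1 did. That gene was Cd14, with a mean of 1176 CPM in LTβRΔN against 817 CPM in Ctrl and a log2 fold change of 0.53 (SE 0.192, unadjusted p = 0.0116 and adjusted p = 1 by edgeR). The ranges of Cd14 overlapped, since LTβRΔN library 68, the smallest of all with 1094335 counts, had 680.3 CPM and the other 3 were above every Ctrl library. Tlr6 had a log2 fold change of 0.42 (SE 0.207, adjusted p = 1), with levels of 62.2 to 74.4 CPM in LTβRΔN and 40.2 to 60.8 CPM in Ctrl, and Tlr1 one of -0.50 (SE 0.823, adjusted p = 1). The values of the remaining genes lay between -0.14 for Tlr13 and 0.25 for Irak3.

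The difference between the 2 responses was tested as an interaction of label and genotype. By edgeR 0 of the 10 genes passed (0% of all genes, with 342 of 9213 at an unadjusted p under 0.05), 2 of the 10 had an unadjusted p under 0.05, and DESeq2 called 0 as well. These 2 were Tlr6, whose response was smaller in LTβRΔN by a log2 difference of -0.62 (SE 0.274, unadjusted p = 0.0334 and adjusted p = 0.9999 by edgeR), and Cd14, at -0.55 (SE 0.253, unadjusted p = 0.0393 and adjusted p = 0.9999). For both genes the unstimulated level was the lower one in Ctrl, and the stimulated means were 102 against 89.1 CPM for Tlr6 and 6865 against 6744 CPM for Cd14. Tlr1 had the largest estimate, 1.35 (SE 1.11, adjusted p = 0.9999), and the widest error. So the call of Tlr6 and of Irak2 in Ctrl and not in LTβRΔN was not shown to be a difference between the genotypes, with an interaction of -0.38 (SE 0.302, adjusted p = 0.9999) for Irak2.

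Levels were compared between genes as CPM per kilobase of exon (CPM per kb), since a longer transcript gives more reads. By the median over libraries, Cd14 was the highest in all 4 groups and Tlr1 the lowest. Unstimulated Ctrl neutrophils had Cd14 at 441 CPM per kb, Myd88 at 232, Tlr2 at 164, Tlr13 at 56.5 and Ly96 at 22.7, and the ranges of neighbours in this order did not overlap. Next came Irak3 at 14.6, Tlr6 at 14.3 and Tlr4 at 13.7 CPM per kb, which overlapped in range, then Irak2 at 10.98 and Tlr1 at 2.54. The range of Irak2 overlapped those of Irak3 and Tlr6, and its highest value, 13.55, was just below the lowest of Tlr4, 13.57. After stimulation Tlr2 stood above Myd88 without overlap in both genotypes, at 594 against 410.1 CPM per kb in Ctrl and 566 against 378 in LTβRΔN. Without stimulation Myd88 was the higher one, at 232 against 164 CPM per kb in Ctrl and 242 against 200 in LTβRΔN, where their ranges overlapped.

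Tlr13, Tlr6, Tlr4, Irak2 and Ly96 overlapped as neighbours in stimulated Ctrl, with medians of 42.8, 27.5, 23.1, 20.8 and 19.5 CPM per kb, and Irak3 followed at 14.0. Ly96 thus stood above Tlr4, Tlr6, Irak2 and Irak3 in unstimulated Ctrl and below the first 3 of these by median in stimulated Ctrl. In stimulated LTβRΔN Tlr13 at 46.8 CPM per kb was clear of Tlr4 at 32.9, and below it Tlr6 at 24.4, Ly96 at 18.9, Irak2 at 14.7 and Irak3 at 13.4 overlapped with their neighbours.

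**Figure D3:**
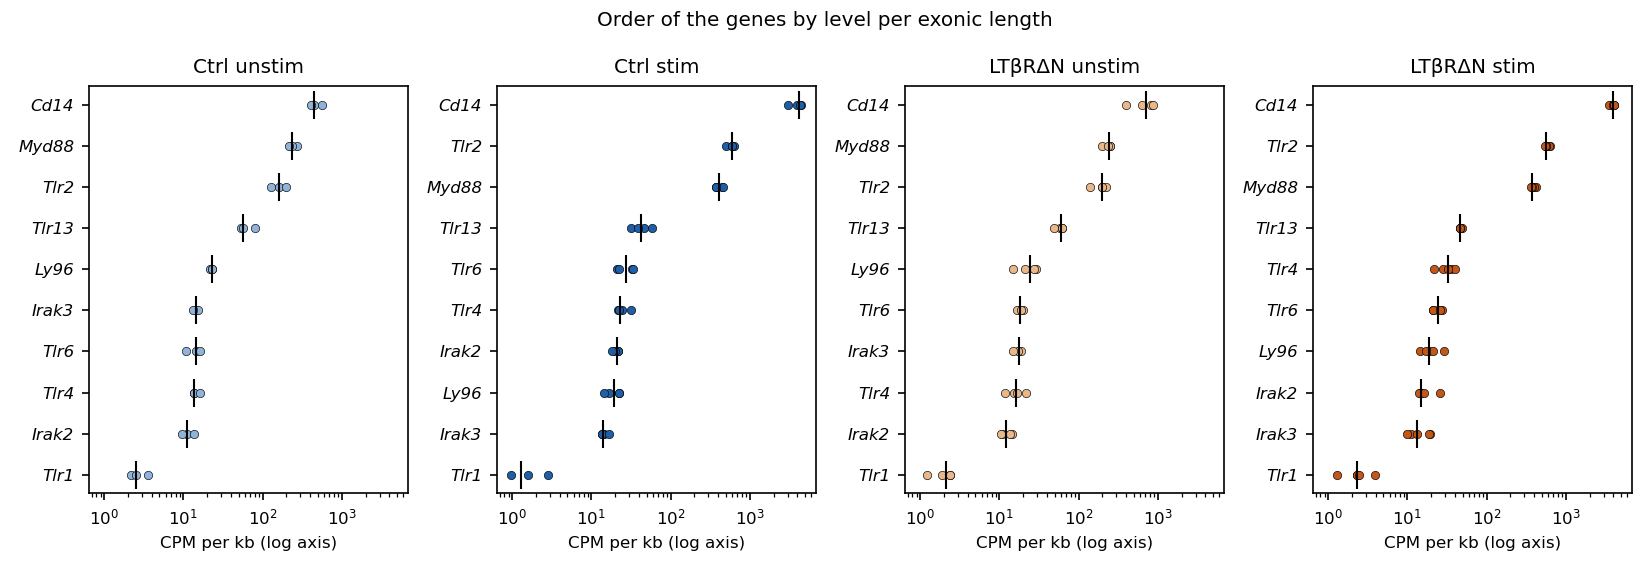
CPM per kb of exon on a log axis for each library (points) with the median as a vertical tick, genes ordered by median within each of the 4 groups. Tlr2 stands above Myd88 in both stimulated groups and below it in both unstimulated groups, and the 0 of Tlr1 in library 80 cannot be drawn on this axis.

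Ratios of counts within a library do not depend on how libraries are scaled, and 2 of them were compared over libraries with an exact permutation test (two-sided), with p-values adjusted over the 4 tests. Both ratios were chosen with earlier results of these data known, so their p-values are not independent evidence. The log2 ratio of Tlr2 to Tlr4, the receptors of lipopeptides and of lipopolysaccharide, had a Ctrl mean of 2.58 ± 0.202 (SD, n = 3) without stimulation and 3.68 ± 0.164 (SD, n = 4) with it. It was higher in 4 of 4 stimulated libraries, by 1.10 (exact permutation p = 0.0286, the smallest that 4 against 3 libraries allow, adjusted p = 0.0381). In LTβRΔN it was 2.66 ± 0.243 (SD, n = 4) without and 3.34 ± 0.345 (SD, n = 5) with stimulation, higher in 5 of 5 libraries by 0.69 (exact permutation p = 0.0159, adjusted p = 0.0317). Tlr2 thus rose more than Tlr4 in both genotypes.

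The log2 ratio of Irak2 to Irak3, the sustaining and the dampening member of the IRAK family, had a Ctrl mean of -0.09 ± 0.369 (SD, n = 3) without stimulation and 0.75 ± 0.246 (SD, n = 4) with it. All 4 stimulated libraries were above the unstimulated ones, and the difference of 0.84 did not pass (exact permutation p = 0.0571, adjusted p = 0.0571, where the smallest possible p is 0.0286). In LTβRΔN the ratio was -0.21 ± 0.226 (SD, n = 4) without and 0.50 ± 0.307 (SD, n = 5) with stimulation, higher in 5 of 5 libraries by 0.72 (exact permutation p = 0.0159, adjusted p = 0.0317). Neither gene was called by itself in LTβRΔN, where edgeR gave Irak2 an unadjusted p of 0.0309 and an adjusted p of 0.304. The gene p-values were adjusted over all genes tested and those of the ratios over 4 tests only. Because these corrections differ, the pass of the ratio does not show a shift that Irak2 alone lacks. With 0.5 added to each count these ratios rest on 59 or more reads of Irak2 and 52 or more of Irak3 per library. Leaving out LTβRΔN library 68 or 70 took the adjusted p of both LTβRΔN ratios to 0.0571.

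**Figure D4:**
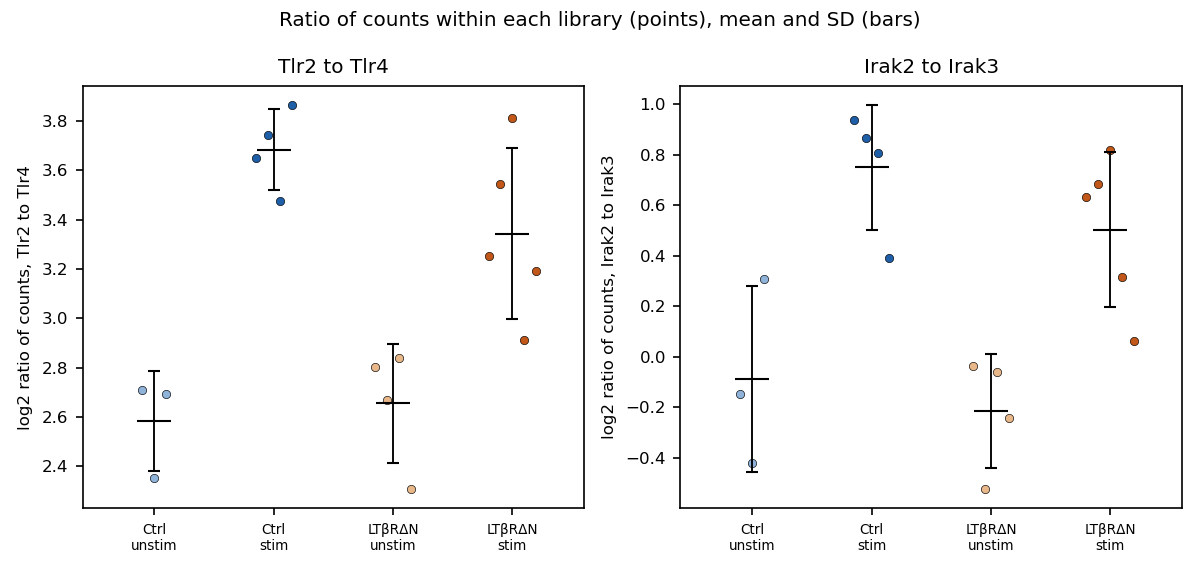
Log2 ratio of counts within each library (points) on the vertical axis, Tlr2 to Tlr4 on the left and Irak2 to Irak3 on the right, in the 4 groups, with the mean and SD as bars. In both genotypes every stimulated library has a higher ratio than every unstimulated one.

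The rest of the pathway was read from a list of 48 further genes, of which 36 passed the filter on low counts. In each genotype 3 of the 36 were called, all higher and all of the module of TRAF6, TAK1 and the IKK kinases, which had 15 genes tested, and 0 were called lower (over all genes, 3.48% were called and 2.82% called higher in Ctrl, and 3.73% and 2.98% in LTβRΔN). The median log2 fold change of the 36 was 0.0461 in Ctrl and 0.0453 in LTβRΔN. Among other Toll-like receptors 3 of 7 were tested, among co-receptors and chaperones 5 of 8, among adaptors 5 of 6, among IRAK kinases and Pellino ligases 4 of 5 and among inhibitors 4 of 7, with 0 called by edgeR in each list in either genotype. Over all 36 genes edgeR gave 5 unadjusted p-values under 0.05 in Ctrl, where 1049 of all 9213 genes had one, and 5 in LTβRΔN, where 1199 had one, and DESeq2 called 3 in each. Tlr3, Tlr9, Tlr11 and Tlr12 were listed with 0 counts in all 16 libraries.

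Tifa, which drives TRAF6 into active oligomers, had the largest rise among the called pathway genes. It was at 2.97, 2.15 and 3.65 CPM in unstimulated and 80.3, 73.8, 128 and 62.9 CPM in stimulated Ctrl libraries, and at 1.39, 1.60, 3.40 and 1.70 CPM without and 37.4, 95.2, 54.2, 101 and 63.9 CPM with stimulation in LTβRΔN. Log2 fold changes were 4.88 (SE 0.408, adjusted p = 1.02e-08) in Ctrl and 5.13 (SE 0.389, adjusted p = 1.71e-09) in LTβRΔN. Map3k8, the kinase TPL2 that links IKK to the ERK cascade, went from 20.7, 38.1 and 42.5 to 178, 165, 161 and 206 CPM in Ctrl and from 83.4, 32.8, 42.6 and 64.3 to 189, 147, 204, 247 and 227 CPM in LTβRΔN. No stimulated library of these genes overlapped with an unstimulated one. Within a genotype, every stimulated library was above every unstimulated one for 6.58% of all genes in Ctrl and 4.61% in LTβRΔN. These genes and Traf6 were named because they were called. Map3k8 had log2 fold changes of 2.40 (SE 0.279, adjusted p = 1.78e-06) and 1.82 (SE 0.24, adjusted p = 1.23e-05).

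Traf6, the ubiquitin ligase below the IRAK kinases, was at 15.9, 17.3 and 8.70 CPM in unstimulated and 62.3, 78.3, 97.01 and 40.95 CPM in stimulated Ctrl libraries, and at 14.7, 12.01, 19.7 and 29.6 CPM without and 41.1, 47.3, 90.9, 48.5 and 42.2 CPM with stimulation in LTβRΔN. The lowest stimulated value, 40.95 CPM, was above the highest unstimulated one, 29.6 CPM. Traf6 had log2 fold changes of 2.31 (SE 0.373, adjusted p = 2.02e-04) in Ctrl and 1.45 (SE 0.324, adjusted p = 0.00749) in LTβRΔN. With the index as a covariate, Map3k8 and Traf6 kept their calls in Ctrl and lost them in LTβRΔN, at 1.28 (adjusted p = 0.586) and 2.38 (adjusted p = 0.158), where the index term again came from Ctrl library 73 against 71 and 72.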

How the data were processed

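The authors deposited 1 table of read counts, whole numbers for each gene symbol in 16 libraries, not normalized. Per the submitters' processing notes, Bowtie 1.0.0, TopHat 1.4.1, HTSeq 0.7.1 and the build mm10 were used. Genes were kept by filterByExpr (minimum count 10, minimum total 15) and fitted in edgeR 4.0.16 (R 4.3.3) with TMM scaling, a coefficient for each of the 4 groups and quasi-likelihood tests, using 16 libraries. Benjamini-Hochberg adjustment ran over all 9213 genes, and an adjusted p under 0.05 counted as called. The script was tested on simulated data. Ratios had 0.5 added to each count. Library pairs within a group differed by more than sampling noise (chi-square per degree of freedom of 6.82 to 49.4 over 25 pairs). Gene places and lengths came from GENCODE M21 on GRCm38, and promoters from RefSeq.

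Alternatives were DESeq2's size factors, library totals only, every gene with at least 1 count, DESeq2 1.42.0, the index as a covariate, the compared groups only, a replicate block, 2 added to each count for the ratios, and each library left out. The genes, lists and ratios were chosen with earlier results of these data known. Named are the 10 genes, Ltbr, and pathway genes past the test. Symbols of 1 pathway and 2 marker genes were matched through older names, and 2 marker genes were not matched. Promoters of Tlr4, Ly96 and Cd14 are not shown. The value of 1 marker gene is not reported here.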

Additional observations from a re-analysis of the deposited data

Results flagged for a closer look

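Within groups of 4 or 5 libraries, each of the 10 genes was examined for a library far from the others on the log2 CPM scale. Of the 30 groups 1 was flagged, where chance flags about 1 in 20. In stimulated LTβRΔN neutrophils, library 76 had 115 CPM of Irak2, and the gap to the next library was 0.766 of the group's whole range, above the critical value of 0.71. The other 4 libraries lay between 61.5 and 71.3 CPM. This library was the deepest of its group, with 8575222 counts, and also the highest of the 5 in Irak3, at 71.8 CPM. The part of its depth in the value was not tested.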

How the results depend on the processing

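With the library index as a covariate, 3 of the 10 genes were called in Ctrl and 1 pathway gene in LTβRΔN, and the LTβRΔN values of Tlr1 and Tlr6 reversed to -0.306 and -0.00562. Library totals only reversed Irak3 in Ctrl to -0.23, Ly96 between unstimulated genotypes to -0.00306 and the interaction of Myd88 to 0.0247, which the index covariate took to 0.0329 and the block by column number to 0.0355. With 1 library left out, called genes numbered 3 to 6 in Ctrl and 4 in LTβRΔN, and pathway genes 3 in Ctrl and 3 to 4 in LTβRΔN. Values near 0 that changed sign were Irak3 in Ctrl (-0.0507 to 0.0669), the stimulated genotype values of Tlr2 (-0.0613 to 0.0585), Tlr13 (-0.0265 to 0.258), Cd14 (-0.133 to 0.0407), Ly96 (-0.0814 to 0.197) and Irak3 (-0.130 to 0.111), the unstimulated ones of Tlr13 (-0.253 to 0.0673), Ly96 (-0.0604 to 0.213) and Myd88 (-0.122 to 0.0475), and the interactions of Ly96 (-0.147 to 0.151) and Myd88 (-0.134 to 0.0350). The Tlr2 to Tlr4 ratio ranged from 0.98 to 1.17 in Ctrl and from 0.57 to 0.80 in LTβRΔN, and Irak2 to Irak3 from 0.67 to 1.03 and from 0.61 to 0.83. The Ctrl ratio of Tlr2 to Tlr4 no longer passed in any of these 7 runs, where so few libraries cannot reach the threshold. Of 918 recomputed log2 fold changes (the 10 genes in all 5 comparisons, the 3 called pathway genes with stimulation and Ltbr by genotype), 854 kept their direction and side of the threshold, 24 no longer passed, 3 newly passed and 37 reversed; the cause was not tested.

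No count of called genes by genotype or by interaction moved from 0 among the 10 genes. Over all genes, the index covariate left 157 called in Ctrl and 79 in LTβRΔN, and 1 by interaction. By genotype, DESeq2 called 14 among stimulated and 4 among unstimulated libraries, and keeping every gene with at least 1 count gave 4 among the latter. Blocking by the number that column names carry called 4 of the 10 genes in Ctrl (3 higher, with Tlr4, Tlr6 and Irak2 no longer passing, and Tlr13 lower at -0.68) and 4 in LTβRΔN. The main tests do not pair by these numbers, whose meaning is not given. Libraries that share one correlated by 0.0214 to 0.0694 in their deviations over 7 pairs, and 5 of 7 correlated best with their own number. Whether they are pairs is left undecided. Tlr1 had the fewest reads of the 10 genes, at 0 to 96 per library. The 0 was in library 80, which had 7809748 counts.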
